A study of Schizosaccharomyces pombe with 4 samples.

Results

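DNA replication and repair genes of fission yeast, Schizosaccharomyces pombe, were compared between a red2 deletion strain and a wild-type strain by 1-colour oligonucleotide array. The genes were taken from the array's own descriptions, by words for DNA replication, DNA repair, excision or mismatch repair, DNA polymerase, origin recognition, replication factor, minichromosome maintenance, DNA ligase and DNA damage, leaving out those that name cohesin, meiosis or a protein kinase. This gave 80 of the 4997 array genes, at 76 loci once overlapping features were joined, with 39 on chromosome I, 29 on chromosome II and 12 on chromosome III. Both strains were cultured in logarithmic growth in rich medium with glucose and adenine at 30 °C, and they differ in the labels only by the deletion of red2 (strain SP744) against wild type (strain FY12806). Each group had 2 arrays. The description of red2 deletion replicate 2 names red3, while its title and strain label name red2, so calls of members that changed without that array are given.

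Replication of a eukaryotic chromosome starts where the origin recognition complex binds DNA and, with Cdt1, loads the MCM helicase. DNA polymerase alpha then lays down primers, the clamp loader replication factor C places the sliding clamp PCNA, and polymerases delta and epsilon copy the strands while replication factor A covers single-stranded DNA. Mismatch repair corrects copying errors, nucleotide excision repair removes bulky lesions such as those made by ultraviolet light, recombination proteins mend breaks, and checkpoint proteins hold the cell cycle while this is done.

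Positions are those of the deposited tables, which name no genome build. Values are the authors' normalized intensities on the log2 scale, with the pair of blocks of each array gene averaged. The members' median level was 14.38 and 14.35 on the red2 deletion arrays, against 14.09 and 14.06 on the wild-type arrays, while the median of all array genes was 14.43 and 14.43 on the deletion arrays and 14.37 and 14.38 on the wild-type arrays. The lowest value of any member was 11.63 and the highest 15.95. Arrays of a group correlated across all array genes with r = 0.9964 for the deletion and r = 0.9975 for wild type, with 0.9338 to 0.9447 between arrays of different groups. No label gives each array a culture of its own, and the p-values therefore speak only to array-to-array spread, possibly technical. The column headers give both deletion arrays 1 code and both wild-type arrays a different one, without saying what the code stands for, and whatever it marks cannot be told apart from genotype. The name red2 is tied to no array gene in the tables used here, so the deletion itself was not checked.

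The comparison asks how levels of these genes differ once red2 is absent. More of the members rose than fell. Of the 80 members, 46 rose and 13 fell, while 21 were not past the threshold (limma's two-sided test with p adjusted by Benjamini-Hochberg over all array genes, threshold 0.05). Over all array genes 34.0% were called higher and 29.8% lower, and the median log2 fold change was 0.23 for the members and 0.01 for all array genes. The changes were modest: 15 members rose and 2 fell by at least 1.5-fold, where 10.0% and 9.81% of all array genes did, and 0 members were 2-fold apart in either direction, where 2.72% were called at least 2-fold higher and 2.54% at least 2-fold lower. The 2 groups of arrays did not overlap for 51 members that were higher in the deletion and 20 that were lower, against 43.4% and 41.2% of all array genes. The called members were among these. Fold changes here are log2, red2 deletion over wild type, ± limma's standard error, with 2 arrays a group. In such bulk samples fewer cells of a kind and less RNA per cell cannot be told apart.

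The members were longer than most array genes, and on these arrays longer genes had higher fold changes. The median length was 1891.5 bp for the members and 1194 bp for all array genes. Across array genes the Spearman correlation of length with log2 fold change was 0.445 over all 4997 and 0.409 over the 80 members; array genes share the same 4 arrays and are not independent. Among members of 2000 to 3000 bp, 18 of 23 rose and 2 fell, and among those above 3000 bp 10 of 14 rose and 1 fell. Among all array genes of 2000 to 3000 bp 57.4% were called higher and 5.97% lower, and above 3000 bp 63.6% and 4.08%. Members of 1000 to 2000 bp had 16 of 35 that rose and 7 that fell, where 36.3% and 20.6% of all array genes of that length did, and of the 8 members up to 1000 bp 2 rose and 3 fell, where 18.7% and 51.9% did. With the length trend removed from each array, 30 members were higher and 21 lower, against 28.6% and 35.2% of all array genes, and the median was 0.06 for members and -0.04 for all array genes. Of the 46 members called higher, 28 passed as higher there too and 18 did not pass. Of the 13 called lower, 10 passed as lower. The part of gene length in these results was not tested.

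**Figure D1:**
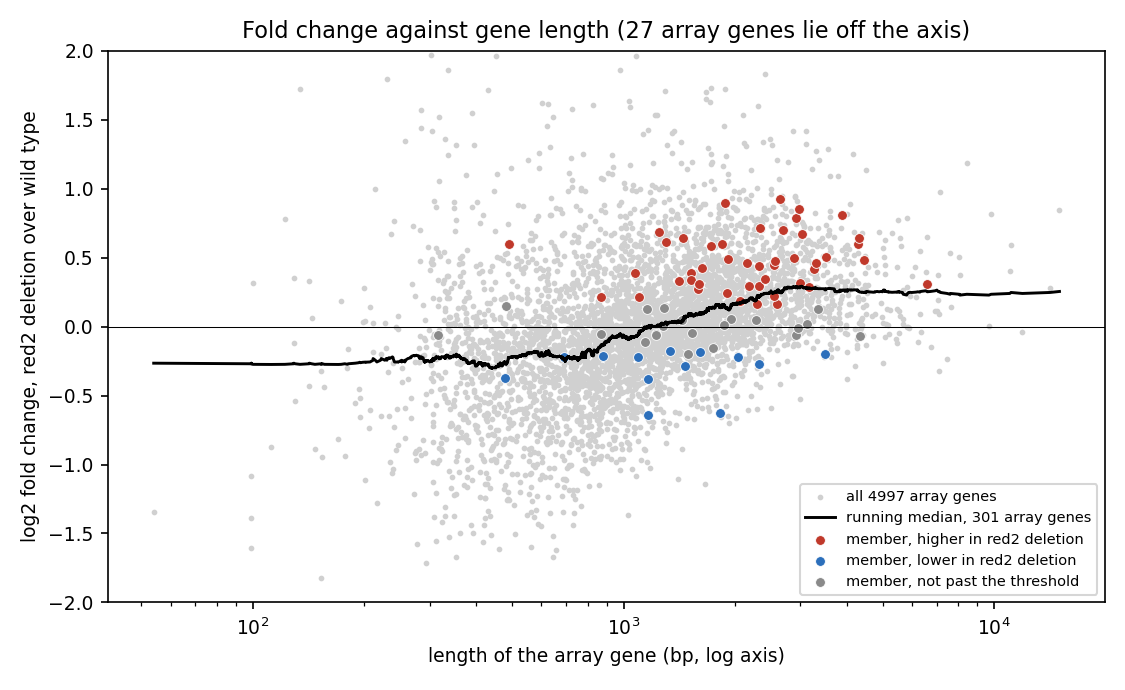
Log2 fold change of red2 deletion over wild type (vertical axis) against the length of each array gene in bp (horizontal log axis); grey points are all 4997 array genes, 27 of which lie outside the axis, the line is a running median over array genes ordered by length, and coloured points are the 80 members by call. Members above 2000 bp are mostly red, and the running median of all array genes rises over the same lengths.

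**Figure D2:**
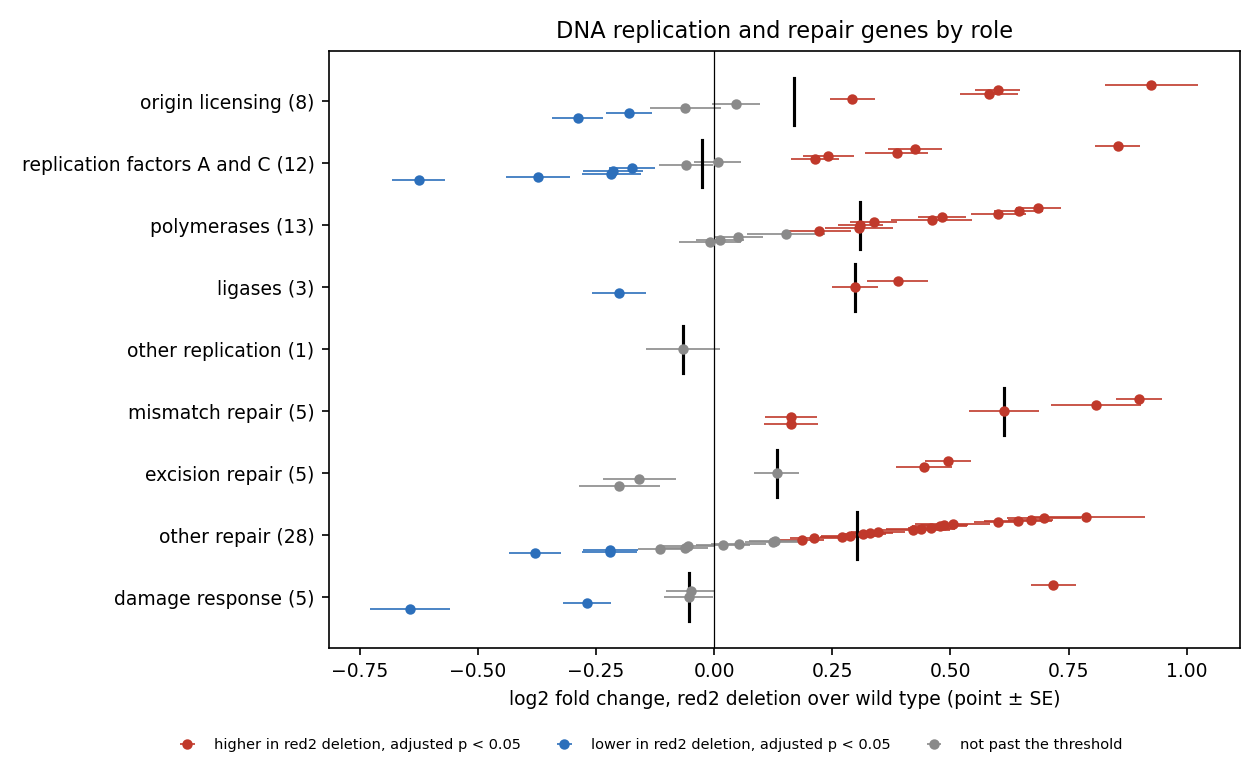
Log2 fold change of red2 deletion over wild type with limma's standard error for each of the 80 members, in rows by role with the number of members in parentheses; a black bar marks the median of the row. All 5 mismatch repair points lie right of 0, the polymerases have no blue point, and the replication factors lie on both sides.

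Genes of origin licensing moved in both directions, with the highest value of all members among them. Of 8 array features, 4 rose, 2 fell and 2 did not pass, with a median log2 fold change of 0.17. Beside these counts, 34.0% of all array genes were called higher and 29.8% lower. The gene described as a homologue of minichromosome maintenance protein 3, a subunit of the replicative helicase (chromosome III from 372447 to 375086), stood at 15.42 and 15.13 on the deletion arrays, against 14.31 and 14.38 on the wild-type arrays. It lay higher on both deletion arrays and rose by 0.93 ± 0.10 (limma adjusted p = 0.000517). Its partner mcm7, another helicase subunit, stood at 15.61 and 15.61 on the deletion arrays, against 15.59 and 15.53 on the wild-type arrays. The groups lay side by side without overlap but close together, and the difference of 0.05 ± 0.05 did not pass the test (95% interval -0.08 to 0.17). Subunit 3 of the origin recognition complex has 2 features that overlap by 92 bp. The longer one (chromosome I from 1921210 to 1922928) stood at 13.45 and 13.32 on the deletion arrays, against 12.78 and 12.83 on the wild-type arrays, and it rose by 0.58 ± 0.06 (limma adjusted p = 0.000496). The shorter one stood at 13.91 and 13.90 on the deletion arrays, against 13.30 and 13.32 on the wild-type arrays, and it rose by 0.60 ± 0.05 (limma adjusted p = 0.00019), and the features gave nearly the same difference (log2 0.41 and 0.86 with the length trend removed, longer first). Subunit 1, an ATPase, stood at 14.79 and 14.76 on the deletion arrays, against 14.48 and 14.49 on the wild-type arrays, and it rose by 0.29 ± 0.05 (limma adjusted p = 0.00273). Subunits of this 1 complex did not move together: subunits 5 and 2 fell, by 0.29 ± 0.05 and 0.18 ± 0.05, and orc4 stood at -0.06 ± 0.08, not past the threshold. Subunits 5, 2 and 4 were chosen after their values were seen. The call of subunit 2 ended without wild_type replicate 1 (limma adjusted p = 0.0815) or wild_type replicate 2 (0.16). With the length trend removed, 3 of the 8 were higher and 4 lower, against 28.6% and 35.2% of all array genes. Subunit 1 no longer passed there (log2 0.05), and mcm7 and orc4 passed as lower (-0.22 and -0.38).

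Features described as replication factors moved in both directions, subunits of the clamp loader and of the single-strand binding complex among them. Where 34.0% of all array genes were called higher and 29.8% lower, 5 of 12 features described as replication factors rose and 5 fell. The other 2 did not pass, and the median of the class was -0.03. The highest was a gene described as a putative activator 1 subunit, activator 1 being another name of replication factor C (chromosome II from 3812040 to 3815020). It stood at 15.47 and 15.45 on the deletion arrays, against 14.60 and 14.62 on the wild-type arrays, and it rose by 0.85 ± 0.05 (limma adjusted p = 7.89e-05). A gene described as a putative replication factor subunit stood at 14.65 and 14.67 on the deletion arrays, against 14.18 and 14.29 on the wild-type arrays, and it rose by 0.42 ± 0.06 (limma adjusted p = 0.00126). The 41 kd subunit of replication factor C (chromosome I from 4299943 to 4301017) stood at 14.78 and 14.89 on the deletion arrays, against 14.51 and 14.39 on the wild-type arrays, and it rose by 0.39 ± 0.07 (limma adjusted p = 0.00349). Subunit 5 of the same complex stood at 14.74 and 14.77 on the deletion arrays, against 14.72 and 14.77 on the wild-type arrays, with overlapping groups and a difference of 0.01 ± 0.05 (95% interval -0.11 to 0.13). At the other end was cdc24, which encodes a fission yeast protein needed for chromosome replication (chromosome I from 2856136 to 2857958). It stood at 12.54 and 12.44 on the deletion arrays, against 13.12 and 13.10 on the wild-type arrays, and it fell by 0.62 ± 0.06 (limma adjusted p = 0.000283), 1 of the 2 members that fell by at least 1.5-fold. The 3 subunits of replication factor A, named here after their values were seen, did not share a direction: proteins 1 and 2 rose by 0.24 ± 0.05 and 0.21 ± 0.05, and protein 3 fell by 0.37 ± 0.07. The call of protein 1 ended without wild_type replicate 2 (limma adjusted p = 0.0812), and that of protein 2 ended without wild_type replicate 1 (0.118). The licensing factor cdt1 falls in this class by its description and fell by 0.17 ± 0.05, not passing without wild_type replicate 1 (0.117) or wild_type replicate 2 (0.148). A pair of overlapping features of 1 clamp loader subunit fell alike, by 0.21 ± 0.06 and 0.22 ± 0.06. Neither passed with the length trend removed, without wild_type replicate 1 (0.219 and 0.167) or without red2_deletion replicate 1 (0.0629 and 0.0649). Neither protein 1 nor protein 3 of replication factor A passed with the trend removed. In that fit 4 of the 12 were higher and 2 lower, against 28.6% and 35.2% of all array genes. The 2 lower were cdc24 and cdt1 (log2 -0.81 and -0.27), so no feature described as a subunit of either complex was lower there.

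Features described with a DNA polymerase rose or did not pass, and none fell. Of these 13, 9 rose and 4 did not pass, with a median of 0.31. Over all array genes 34.0% were called higher and 29.8% lower. Among the 9 are pob3 and a CTF4-like gene, which are described as binding a polymerase rather than as one. DNA polymerase alpha, which makes the primers (chromosome I from 3423260 to 3427568), stood at 15.29 and 15.22 on the deletion arrays, against 14.62 and 14.60 on the wild-type arrays, and it rose by 0.64 ± 0.05 (limma adjusted p = 0.000202). Its 70 kd subunit stood at 14.39 and 14.34 on the deletion arrays, against 13.72 and 13.82 on the wild-type arrays, and it rose by 0.60 ± 0.06 (limma adjusted p = 0.000357). Both deletion arrays lay well above both wild-type arrays for each of these subunits. DNA polymerase gamma, which copies mitochondrial DNA (chromosome III from 941416 to 942664), had the largest difference of the class. It stood at 14.37 and 14.33 on the deletion arrays, against 13.67 and 13.66 on the wild-type arrays, and it rose by 0.69 ± 0.05 (limma adjusted p = 0.000137). The catalytic subunit of polymerase zeta, which copies past damaged bases, stood at 12.42 and 12.49 on the deletion arrays, against 11.97 and 11.97 on the wild-type arrays, and it rose by 0.48 ± 0.05 (limma adjusted p = 0.000484). DNA polymerase V, whose budding yeast namesake acts in ribosomal RNA synthesis, stood at 15.34 and 15.46 on the deletion arrays, against 15.46 and 15.36 on the wild-type arrays. Its groups overlapped, with a difference of -0.01 ± 0.07 (95% interval -0.17 to 0.15). The others, whose values were seen before they were named, included the large chain of polymerase delta (0.46 ± 0.08) and the catalytic subunit of polymerase epsilon (0.31 ± 0.05), which both rose. Small subunits of these polymerases did not pass. Separate features on different chromosomes are described as a delta small subunit. The longer, on chromosome I, stood at 0.05 ± 0.05, and the shorter, on chromosome II, at 0.15 ± 0.08. Subunit b of epsilon stood at 0.01 ± 0.05. The shorter delta feature passed as higher without wild_type replicate 1 (0.27, limma adjusted p = 0.0254) and once the length trend was taken out (0.41, 0.00522). With the length trend removed 5 of 13 were higher and 2 lower, where 28.6% and 35.2% of all array genes were. Both alpha subunits (log2 0.31 and 0.41) and gamma (0.62) still passed, while zeta (0.15, limma adjusted p = 0.0559), delta large chain (0.14) and epsilon catalytic subunit (-0.03) did not, and DNA polymerase V (-0.32) and subunit b of epsilon (-0.18) passed as lower. Leaving out red2_deletion replicate 2 or wild_type replicate 1 ended the call of the CTF4-like protein that binds polymerase alpha (0.22 ± 0.07), with limma adjusted p = 0.0622 and 0.122.

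DNA ligases seal nicks at the end of replication and repair. The ligase on chromosome I, described with DNA replication, stood at 15.17 and 15.02 on the deletion arrays, against 14.69 and 14.71 on the wild-type arrays, and it rose by 0.39 ± 0.06 (limma adjusted p = 0.00283). A further ligase, on chromosome II from 797202 to 799526, stood at 14.97 and 15.01 on the deletion arrays, against 14.69 and 14.69 on the wild-type arrays, and it rose by 0.30 ± 0.05 (limma adjusted p = 0.00253). The ligase on chromosome III from 599310 to 602803 went the other way: it stood at 13.69 and 13.64 on the deletion arrays, against 13.92 and 13.82 on the wild-type arrays, and it fell by 0.20 ± 0.06 (limma adjusted p = 0.0227). That call ended without wild_type replicate 1 (limma adjusted p = 0.186) or red2_deletion replicate 2 (0.0524), and with the second block alone (0.309). Removing the length trend ended the call on chromosome II (log2 0.03). A gene described as a replication helicase (chromosome II from 3551437 to 3555770) stood at 13.07 and 13.16 on the deletion arrays, against 13.28 and 13.09 on the wild-type arrays. Its groups overlapped (difference -0.07 ± 0.08, 95% interval -0.26 to 0.13), and once the length trend was taken out it passed as lower (-0.40, limma adjusted p = 0.00611).

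Mismatch repair features stood highest of the roles by their median. With values as deposited, 5 of 5 features described with mismatch repair passed as higher, with a median of 0.61. With the length trend removed, or with arrays centred on their median, 3 of the 5 passed. The share of all array genes called higher was 34.0% as deposited and 28.6% with the length trend removed. Msh6, a protein of mismatch recognition (chromosome III from 1831705 to 1835584), had values of 14.71 and 14.49 on the deletion arrays, against 13.70 and 13.88 on the wild-type arrays, and it rose by 0.81 ± 0.10 (limma adjusted p = 0.000739). The lowest deletion value lay clearly above the highest wild-type value, and the gene also passed once the length trend was taken out (0.48). The gene pms1, whose product acts once a mismatch is bound, was barely past the threshold. It stood at 13.58 and 13.56 on the deletion arrays, against 13.36 and 13.46 on the wild-type arrays, and it rose by 0.16 ± 0.06 (limma adjusted p = 0.0421). Its groups did not overlap but lay close together. Its call ended once the length trend was taken out, where it turned to the other side of 0 (log2 -0.13), and with arrays centred on their median (0.11). Leaving out any 1 array ended the call, with limma adjusted p = 0.324 and 0.0674 without wild_type replicate 1 and replicate 2, and 0.0807 and 0.0535 without red2_deletion replicate 1 and replicate 2. With the second block alone it did not pass either (0.557).

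**Figure D3:**
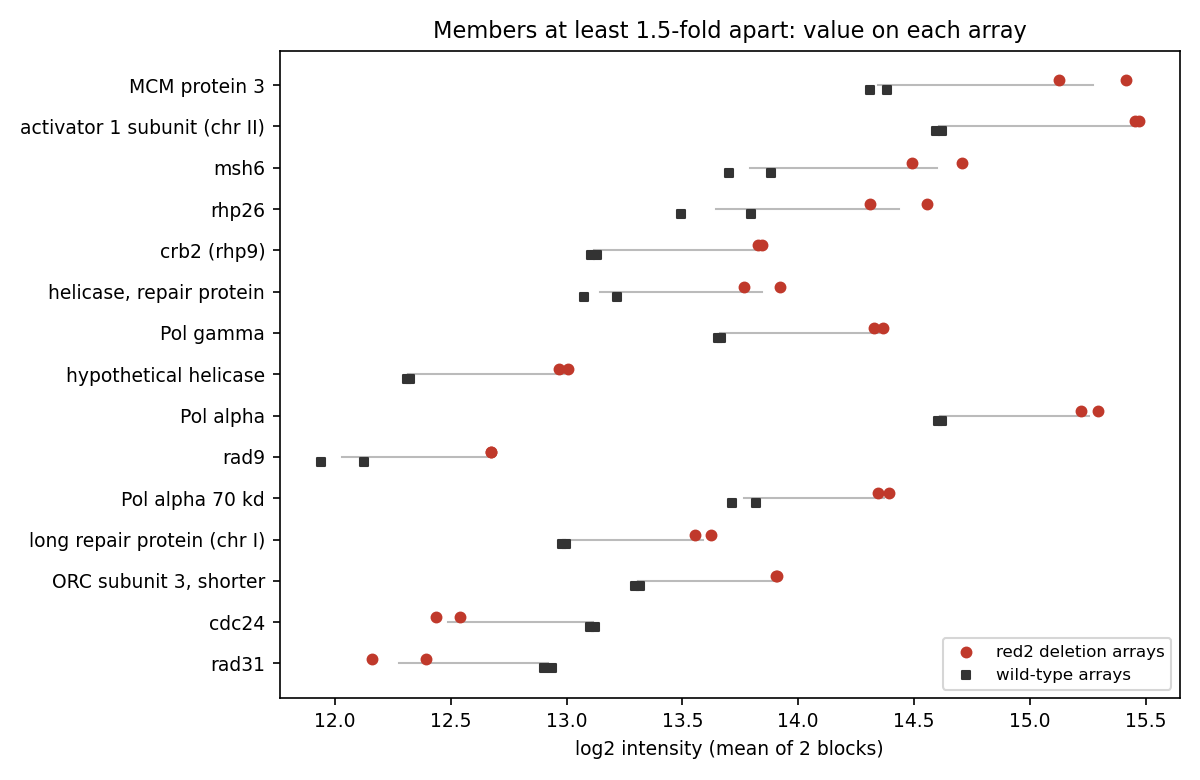
Log2 intensity on each of the 4 arrays (horizontal axis) for 15 of the members called and at least 1.5-fold apart; red circles are red2 deletion arrays, black squares are wild-type arrays, and grey lines join the group means. The upper 13 members have their deletion values on the right and cdc24 and rad31 have them on the left, and no member's groups overlap.

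Among features whose description names excision repair, 40% were called higher, a share near the 34.0% of all array genes. The 2 features called higher are both described as homologues of RAD16. This class follows that word alone. Repair genes described without it, such as rhp26, rad13 and rad15, are counted among the other repair features. Of 5 features described with excision repair, 2 rose, 0 fell and 3 did not pass, with a median of 0.13. For comparison, 34.0% of all array genes were called higher and 29.8% lower. The gene rhp16, which encodes a chromatin-remodelling ATPase of damage recognition (chromosome III from 102685 to 105576), stood at 14.70 and 14.72 on the deletion arrays, against 14.19 and 14.23 on the wild-type arrays, and it rose by 0.50 ± 0.05 (limma adjusted p = 0.00039). The homologue on chromosome II stood at 13.85 and 13.75 on the deletion arrays, against 13.39 and 13.33 on the wild-type arrays, and it rose by 0.44 ± 0.06 (limma adjusted p = 0.00116). The homologue of rad23, a damage recognition factor, stood at 15.37 and 15.35 on the deletion arrays, against 15.21 and 15.25 on the wild-type arrays. Its groups did not overlap, but the difference of 0.13 ± 0.05 did not pass (limma adjusted p = 0.0531), and it passed without the dimmest genes (0.0397), with the second block alone (0.0335) or with a trend prior (0.0221). The partner of Rhp16, rhp7, stood at -0.16 ± 0.08, not past the threshold, and at -0.25 without wild_type replicate 2. This partner passed as lower with the first block alone (-0.24, limma adjusted p = 0.0279) and with the length trend removed (-0.33, 0.0104). The excision repair endonuclease, named after its values were seen, stood at 11.63 and 11.86 on the deletion arrays, against 11.91 and 11.98 on the wild-type arrays. Its groups did not overlap, and its difference of -0.20 ± 0.09 did not pass (limma adjusted p = 0.0847). It passed as lower without red2_deletion replicate 2 (-0.32, limma adjusted p = 0.00436), with arrays centred on their median (0.0392), with quantile normalization (0.0304) and with the deposited pair ratios (0.0342), so the count of 0 that fell depends on these settings. With the length trend removed 2 of the 5 were higher and 2 lower, against 28.6% and 35.2% of all array genes. The differences of rhp16 and the chromosome II gene shrank there to 0.18 and 0.15.

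Among the 28 other repair features, 18 rose and 3 fell, where 34.0% of all array genes were called higher and 29.8% lower. The other 7 did not pass, and the median of the 28 was 0.30. The largest difference was that of rhp26, which encodes an ATPase of repair coupled to transcription (chromosome III from 1183535 to 1186456). It stood at 14.56 and 14.31 on the deletion arrays, against 13.80 and 13.49 on the wild-type arrays, and it rose by 0.79 ± 0.12 (limma adjusted p = 0.00234). Its standard error of 0.12 was the highest of the members, where the median was 0.06. A gene described as a helicase and putative DNA repair protein (chromosome I from 3572394 to 3575087) stood at 13.92 and 13.77 on the deletion arrays, against 13.22 and 13.08 on the wild-type arrays, and it rose by 0.70 ± 0.08 (limma adjusted p = 0.000595). A hypothetical helicase with a putative role in DNA repair (chromosome I from 714013 to 717052) stood at 12.97 and 13.01 on the deletion arrays, against 12.31 and 12.32 on the wild-type arrays, and it rose by 0.67 ± 0.05 (limma adjusted p = 0.000145). Both helicases had their deletion arrays above their wild-type arrays. The gene rad9, which encodes a subunit of the checkpoint clamp loaded at damage (chromosome I from 1706252 to 1707698), stood at 12.67 and 12.68 on the deletion arrays, against 11.94 and 12.12 on the wild-type arrays, and it rose by 0.64 ± 0.07 (limma adjusted p = 0.000601). Its partner in that clamp, rad1, looked up after its values were seen, stood at -0.11 ± 0.05 and did not pass. This partner passed as lower with arrays centred on their median (-0.17, limma adjusted p = 0.0216) or with the length trend removed (-0.14, 0.0457). The difference between rad9 and rad1 was not tested. Nearest to 0 was an SNF2 family gene, which stood at 14.11 and 14.22 on the deletion arrays, against 14.13 and 14.17 on the wild-type arrays with overlapping groups. Its difference was 0.02 ± 0.06 (95% interval -0.12 to 0.16), and it passed as lower once the length trend was taken out (-0.30, limma adjusted p = 0.0066). With the trend removed, 11 of the 28 were higher and 6 lower, where 28.6% and 35.2% of all array genes were.

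Genes of homologous recombination, looked up within that class after their values were seen, did not move as 1 group. The rises were 0.48 ± 0.06 for rad54, a DNA translocase, and 0.33 ± 0.05 for rad52, a strand annealing protein. The gene rad55 fell by 0.22 ± 0.06, and its partner rad57 stood at 0.12 ± 0.06, not past the threshold. The call of rad55 ended without wild_type replicate 1 (limma adjusted p = 0.144). The break-processing nuclease gene mre11 rose by 0.46 ± 0.05. Its partner rad50 has 2 features that overlap by 103 bp, and they went opposite ways. The first feature, on chromosome I from 3778577 to 3780616, had values of 13.60 and 13.70 on the deletion arrays, against 13.83 and 13.90 on the wild-type arrays, and it fell by 0.22 ± 0.06 (limma adjusted p = 0.0178). The later one, from 3780514 to 3782578, stood at 14.50 and 14.50 on the deletion arrays, against 14.31 and 14.31 on the wild-type arrays, and it rose by 0.19 ± 0.05 (limma adjusted p = 0.0147). They are nearly equal in length (2040 and 2065 bp), and with the length trend removed they stood at log2 -0.44 and -0.04. Leaving out wild_type replicate 2 ended the call of the first feature (limma adjusted p = 0.114), and that of the later one ended without either wild-type array (0.104 without replicate 1 and 0.108 without replicate 2). The overlapping features of origin recognition subunit 3 and of the clamp loader subunit each moved in 1 direction.

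The damage response features held the strongest fall of all members. Of 5, 1 rose, 2 fell and 2 did not pass, where 34.0% of all array genes were called higher and 29.8% lower. The gene rad31, described in damage tolerance, encodes a subunit of the enzyme that activates the small modifier SUMO (chromosome I from 1208683 to 1209843). It stood at 12.16 and 12.39 on the deletion arrays, against 12.94 and 12.90 on the wild-type arrays, and it fell by 0.64 ± 0.08 (limma adjusted p = 0.0011). A zinc finger gene with a possible damage response stood at 14.80 and 14.86 on the deletion arrays, against 15.08 and 15.12 on the wild-type arrays, and it fell by 0.27 ± 0.05 (limma adjusted p = 0.00488). In the other direction went crb2, also called rhp9, which encodes a mediator between damage sensors and the kinase Chk1 (chromosome II from 4170165 to 4172501). It stood at 13.84 and 13.83 on the deletion arrays, against 13.13 and 13.10 on the wild-type arrays, and it rose by 0.72 ± 0.05 (limma adjusted p = 0.00012). All 3 passed with the length trend removed (log2 -0.68, -0.54 and 0.45). Nearest to 0 was rad25, a 14-3-3 protein, which stood at 15.55 and 15.58 on the deletion arrays, against 15.58 and 15.64 on the wild-type arrays with a difference of -0.05 ± 0.05 (95% interval -0.18 to 0.08). Its relative rad24 stood at -0.05 ± 0.05. These are closely similar genes near the top of the scale, so their values are uncertain where probes share signal, and rad25 passed as lower with the length trend removed (-0.19).

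**Figure D4:**
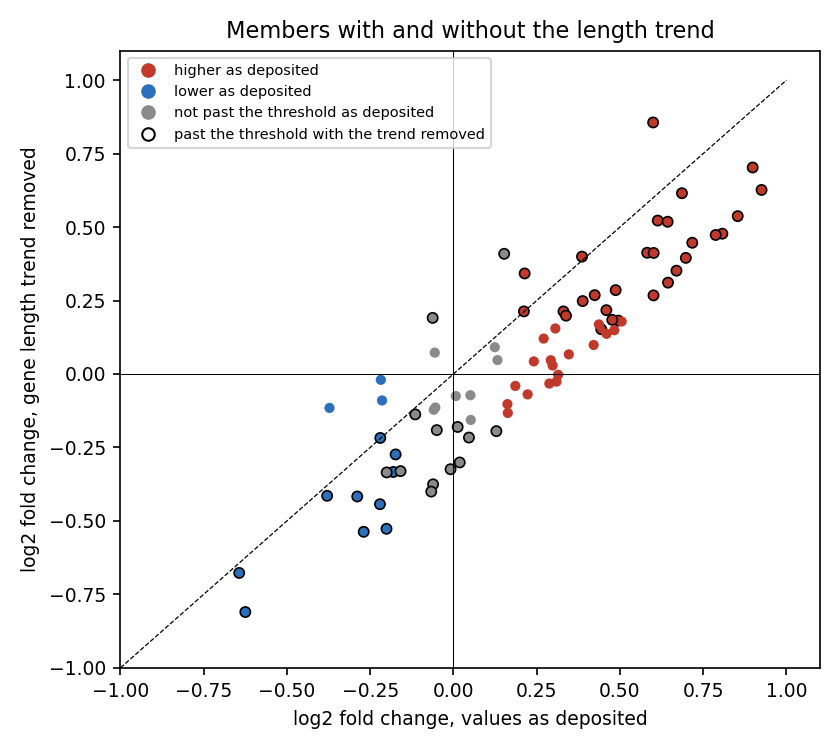
Log2 fold change of red2 deletion over wild type for the 80 members with values as deposited (horizontal axis) and with the gene length trend removed from each array (vertical axis); the dashed line marks equal values and a black rim marks members past the threshold with the trend removed. Of the 80 members, 69 lie below the dashed line, 28 of the red points keep a rim, and the points of cdc24 and rad31 stay lowest.

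Genes around the members were taken from word lists that leave the members out. Of 7 features for the supply of DNA building blocks 0 rose, 5 fell and 2 did not pass, with a median of -0.25. Over all array genes 34.0% were called higher and 29.8% lower, shares that also stand beside the checkpoint counts below. The small chain of ribonucleotide reductase, the enzyme that makes deoxyribonucleotides, stood at 15.10 and 15.36 on the deletion arrays, against 15.70 and 15.65 on the wild-type arrays, and it fell by 0.44 ± 0.09 (limma adjusted p = 0.00687). Its large chain stood at 0.13 ± 0.05, not past the threshold. The dUTP pyrophosphatase, which keeps uracil out of DNA, fell by 0.48 ± 0.06. Its feature is 423 bp long, and 51.9% of all array genes up to 1000 bp were called lower. It still passed as lower with the length trend removed (log2 -0.23). In that fit 5 of the 7 features were lower and 2 did not pass, with 3 of those 5 lower in both fits. Of all array genes 35.2% were lower there. The sliding clamp PCNA, which holds polymerases on DNA, stood at 14.68 and 14.72 on the deletion arrays, against 15.28 and 15.28 on the wild-type arrays, and it fell by 0.58 ± 0.05 (limma adjusted p = 0.000231). Both wild-type values lay above both deletion values, while polymerase alpha had the opposite order. These features differ in length, 894 bp for PCNA and 4309 bp for polymerase alpha. Above 3000 bp 63.6% of all array genes were called higher. With the length trend removed they stood at log2 -0.46 and 0.31, PCNA first, and both passed. Among 6 features for checkpoint kinases and related names, 4 rose, 1 fell and 1 did not pass. The damage sensor kinase rad3 (chromosome II from 824063 to 831223) stood at 14.00 and 13.92 on the deletion arrays, against 12.97 and 13.00 on the wild-type arrays, and it rose by 0.98 ± 0.05 (limma adjusted p = 7.2e-05). Its downstream kinases split: chk1, of the damage checkpoint, rose by 0.63 ± 0.05, and cds1, of the replication checkpoint, fell by 0.37 ± 0.05. All 3 passed in the same direction with the length trend removed (log2 0.64, 0.46 and -0.55). Of 12 features described with a checkpoint, among them rad3, cds1 and genes of the spindle checkpoint, 4 rose, 6 fell and 2 did not pass. The lowest was the spindle checkpoint gene mad2, which fell by 1.11 ± 0.06.

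Leaving out each array in turn gave 40 to 44 members higher and 7 to 13 lower, with a median of 0.22 to 0.26. Of the 46 members called higher 38 passed as higher under every left-out array, and of the 13 called lower 6 did: rad31, cdc24, the zinc finger gene, origin recognition subunit 5, protein 3 of replication factor A and a repair and recombination gene on chromosome II (-0.38 ± 0.06). Without wild_type replicate 1 there were 7 members lower, and without red2_deletion replicate 2, the array with the diverging label, 44 higher and 13 lower. The blocks of an array gene differed in the sign of the fold change for 6 members, of which 0 were called.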

How the data were processed

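Total RNA of red2 deletion and wild-type cells was labelled with Cy3 and hybridised to 4 1-colour NimbleGen arrays. The deposited intensity of each array gene is a linear value that the authors normalized with RMA, per the submitters' processing notes. The deposited ratio of each pair of arrays was used in an alternative only. The log2 intensity of the 2 blocks of an array gene was averaged, and red2 deletion was compared with wild type by limma 3.58.1 in R 4.3.3 (lmFit and eBayes, no filter, no covariate), as a two-sided test, adjusting p by Benjamini-Hochberg across the 4997 array genes (threshold 0.05). The number of arrays limits the precision. The steps were tested on simulated data.

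Array values are printed for up to 4 members per role, those of largest absolute change that passed and whose groups did not overlap, and for the member nearest 0. Some members are counted but not reported here by name. Members, roles and lists were chosen with earlier results of these data known. The search for spor was narrowed to word starts, since it also takes transport. Recombination outside meiosis matched 0 further genes. RefSeq symbols matched 34 members. The length alternative subtracts a loess curve (span 0.5) on log2 length from each array. Other alternatives changed scaling, blocks, prior, pseudocount (32), threshold, overlaps, dim genes, the replicate block, or left out 1 array.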

Additional observations from a re-analysis of the deposited data

How the results depend on the processing

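Of the single-member values recomputed under the alternatives, 528 kept direction and side of the threshold, 28 kept direction but no longer passed, 6 came to pass and 21 changed sign. Changing only the prior, threshold, fold cut or replicate block, or leaving out dim or overlapping genes, left log2 fold changes as they were. The deposited pair ratios gave the same values to rounding. Direction could therefore not change under these settings, and 12 of the 28 came from the 1.5-fold cut. With the gene length trend removed 30 members were higher and 21 lower, with a median of 0.0571. All array genes had 1427 higher and 1761 lower there, against 1699 and 1487. Centring the arrays gave a median of 0.18, with 1478 array genes higher and 1788 lower, and shifted the median of all array genes by 0.06. Quantile normalization gave 0.21, with 1618 and 1580. The median was 0.27 without the dimmest 25% and 0.26 with the first block alone. The second block alone gave 8 members lower, an adjusted p under 0.01 gave 6, and a fold of at least 1.5 gave 15 higher and 2 lower (502 and 490 of all array genes). Leaving out each array gave 40 to 44 members higher, 7 to 13 lower, a median of 0.218 to 0.260, and 1424 to 1729 array genes higher and 1216 to 1594 lower. The cause of these shifts was not tested.

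Sign changes were of log2 values near 0, apart from some with the length trend removed, which were -0.13 for pms1, -0.22 for mcm7, -0.30 for the SNF2 family gene and -0.0752 for replication factor C subunit 5. Quantile normalization gave -0.0013 for the SNF2 family gene and -0.0652 for subunit 5. Centring gave -0.0090 for mcm7, -0.0367 for the SNF2 family gene and -0.0484 for subunit 5. The first block alone gave -0.0192 for the SNF2 family gene and -0.0645 for subunit 5, and the second block alone gave 0.0767 for rad25, -0.0011 for mcm7 and 0.0747 for DNA polymerase V. Over the left-out arrays, log2 fold changes ran from -0.0326 to 0.0704 for the SNF2 family gene, from -0.164 to 0.0306 for the replication helicase, from -0.0705 to 0.053 for DNA polymerase V and from -0.0161 to 0.0305 for subunit 5. Same-numbered arrays did not deviate together (r = -0.041), so nothing shows that the numbers pair the arrays. With the replicate block 45 members were higher and 14 lower, with a median of 0.23, and 1674 array genes were higher and 1466 lower. The block ended the call of pms1 (limma adjusted p = 0.0566), and the excision repair endonuclease passed as lower with it (0.0342). With 1 block alone further calls ended, those of origin recognition subunits 2 and 5, proteins 1 and 2 of replication factor A, cdt1, both clamp loader features, pob3, the CTF4-like gene, rad55, the rad50 features and the rad50-like gene. A header code shared by the arrays of each genotype and 2 arrays a group limit all values.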

Other observations

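Other word lists that leave the members out are given as counts, beside 34.0% of all array genes called higher and 29.8% called lower. Of 13 features with telomere words 5 rose and 6 fell. They include hypothetical reading frames and pseudogenes described by their place near telomeres, some of them dim. A pseudogene stood at 6.08 and 5.95 on the deletion arrays, against 6.46 and 6.68 on the wild-type arrays. The kinase gene tel1 stood at 1.19 and rap1, which binds telomeres, at -0.50 on the log2 scale. Of 5 topoisomerase features 3 rose and 1 fell, and of 6 features described as DNA helicases 2 rose and 1 fell, with rqh1, a RecQ helicase, at 0.57. Of 14 nuclease features, which include RNA enzymes such as rrp40, 4 rose and 4 fell. Of 3 for chromatin assembly 0 rose and 1 fell. Words for mating matched 24 features, of which 13 rose and 4 fell, and words for meiosis and spores matched 29, of which 16 rose and 6 fell. Of the meiosis features 7 were called at least 2-fold higher, where 0 replication and repair members were. The labels give logarithmic growth for both strains. Whether these features rose through cells in mating or meiosis, and any part of that in the members' values, was not tested.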
